A study of Mus musculus with 12 samples.

Results

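Facioscapulohumeral muscular dystrophy (FSHD) is linked to misexpression of the transcription factor DUX4 in skeletal muscle, and several other genes have been proposed to take part in it. This report describes the mouse counterparts of 5 of them, Frg1, Fat1, Slc25a4, Pitx1 and Crym, found by their symbols among the 37748 genes of the deposited tables. All 5 were listed, and 4 of the 5 had enough reads to be tested with 16679 genes in all. Pitx1 did not.

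RNA was sequenced from the gastrocnemius muscle of 12 mice aged 13 weeks, 3 in each of 4 groups. Control animals carried ACTA1-MCM, a transgene in which a skeletal muscle actin promoter drives a Cre recombinase that tamoxifen (TMX) activates, and had no DUX4 transgene. FLExD animals (FLExDUX4/+) carried an inverted DUX4 transgene in the Rosa26 locus that Cre must flip before full-length DUX4 can be made, and by their labelled genotype had no Cre. Their labels also call their pathology mild, a name that the study's methods give to animals with both transgenes and no TMX. Those animals were not analysed here. The study lists mice 1358, 1367 and 1378 as FLExD/+ and treats its mild animals as a separate group. Moderate and severe animals carried both transgenes. The moderate group had 1 injection of 5 mg/kg TMX, and the severe group had 2 injections of 10 mg/kg on consecutive days. Both were sampled on day 9, which the study counts from the first injection in the severe group. Recombination in this model is mosaic, so each muscle mixes fibres with and without a flipped transgene. By the labels the controls had no TMX, so effects of TMX itself and of the flipped transgene cannot be told apart. The study lists the ACTA1-MCM/+ controls of its models as given TMX, but states no dose for the sequenced ones. Replicates were individual mice.

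As background, FRG1, SLC25A4 (also called ANT1) and FAT1 lie in the human 4q35 region near the repeat array whose contraction or loss of silencing permits DUX4 expression. FRG1 is a nuclear protein with proposed roles in RNA processing and actin bundling, FAT1 is a giant atypical cadherin involved in cell polarity and muscle shape, and SLC25A4 is the muscle and heart form of the mitochondrial ADP/ATP translocase. PITX1 is a homeodomain factor that specifies the hindlimb and was proposed as a DUX4 target, and CRYM (mu-crystallin) is a cytosolic binding protein for thyroid hormone. In the mouse genome (GRCm38, GENCODE annotation), the genes are all protein-coding and lie as follows. Frg1 is on chromosome 8 from 41397459 to 41417074, Fat1 on chromosome 8 from 44935447 to 45052257, and Slc25a4 on chromosome 8 from 46206797 to 46211284. Pitx1 is on chromosome 13 from 55825051 to 55836192, and Crym is on chromosome 7 from 120186380 to 120202111. Fat1 is on the plus strand and the other 4 are on the minus strand.

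One comparison below sets Slc25a4 against its close relative Slc25a5 (ANT2; chromosome X, 36795651 to 36798807, plus strand), the ADP/ATP translocase of most dividing cells, so it matters whether reads can tell the 2 apart. Their coding sequences are both 897 bases long with no gap between them and are identical at 695 bases (77.5%). The 50-base stretch in which they are most alike, coding bases 79 to 128, is shown here with the bases that differ in capitals. It crosses the junction of the first 2 coding exons, which lies between 46209492 and 46210844 on chromosome 8 for Slc25a4 and between 36795809 and 36796859 on chromosome X for Slc25a5.
Slc25a4: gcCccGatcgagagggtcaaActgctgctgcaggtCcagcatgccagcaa
Slc25a5: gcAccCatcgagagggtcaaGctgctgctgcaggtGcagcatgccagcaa
Even there 4 bases differed, and the median 50-base stretch differed at 11 bases. The reads were 50 bases long and were aligned with at most 2 mismatches, and 0 of the 848 stretches met that limit. Slc25a4 and Crym shared none of their 50-base stretches with transcripts of another gene. The shared part was 4.68% for Frg1, 2.51% for Fat1 and 6.79% for Pitx1, and it was 33.8% for Slc25a5, whose reads can also fall on 9 other annotated genes.

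Levels are given as CPM, counts scaled to a common library depth by TMM, a method that sets the bulk of genes equal between libraries, or as the deposited TPM, which also divide by transcript length. Differences are log2 fold changes with their standard errors (SE) from edgeR's quasi-likelihood test with Benjamini-Hochberg adjustment over all genes tested. A gene was called when its adjusted p was below 0.05 and its change was at least 1.4-fold. Libraries held 23796902 to 29136403 counts. The choice of scale matters here, because the 20 most abundant genes of control muscle took 56.8% to 58.5% of counts in control and FLExD libraries, 47.3% to 49.3% in moderate and 30.4% to 33.2% in severe ones. With scaling by library size alone, the median log2 fold change of all genes was 0.65 in moderate and 1.39 in severe muscle, against 0.04 and 0.08 with TMM. Of the genes called in severe muscle, 54.1% were higher with TMM and 92.2% with library size alone, while in moderate muscle these shares were 59.0% and 92.1%.

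Markers of several cell types moved with the groups. The summed level of 10 myofibre markers ran from 155396 to 203716 CPM in control, from 65246 to 79032 CPM in moderate and from 9783 to 17933 CPM in severe muscle, and 7 and then all 10 of them were called lower. In the same order, 8 myogenic and regeneration markers summed to 31.5 to 34.3, 358 to 626 and 1332 to 1897 CPM, with 7 and 8 called higher. For the 7 macrophage and leukocyte markers, all called higher in both, the sums were 61.1 to 76.4, 350 to 444 and 763 to 870 CPM. Of 7 fibro-adipogenic markers, 4 were higher in moderate muscle, and 3 were higher and 2 lower in severe muscle. Of 6 endothelial markers 3 and then 5 were lower, of 6 smooth muscle and pericyte markers 2 were higher in both with 1 and then 2 lower, and of 6 Schwann and tendon markers 2 were lower in moderate muscle, with 5 lower and 1 higher in severe muscle. With library size alone the myofibre and macrophage counts were the same, while in severe muscle all 7 fibro-adipogenic markers were higher and 3 of the 6 endothelial markers were higher and 1 lower. The counts of the last 3 lists rested in part on single mice. Without moderate mouse 1331 only 1 endothelial marker was lower in moderate muscle, without severe mouse 1047 only 1 smooth muscle marker was higher in severe muscle, and without control mouse 1349 only 3 Schwann and tendon markers were lower there. The 2 Schwann and tendon markers lower in moderate muscle became 1 without any 1 of control mice 1246 and 1349, FLExD mouse 1378, moderate mice 1236 and 1331 and severe mouse 1066. Among all genes tested, 24.4% were called higher and 17.0% lower in moderate muscle, and 32.9% and 27.9% in severe muscle. None of the markers above was at 0 throughout a group. The part of these shifts in the changes given next was not tested, and in bulk muscle fewer cells of a type and less RNA per cell cannot be told apart.

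**Figure D1:**
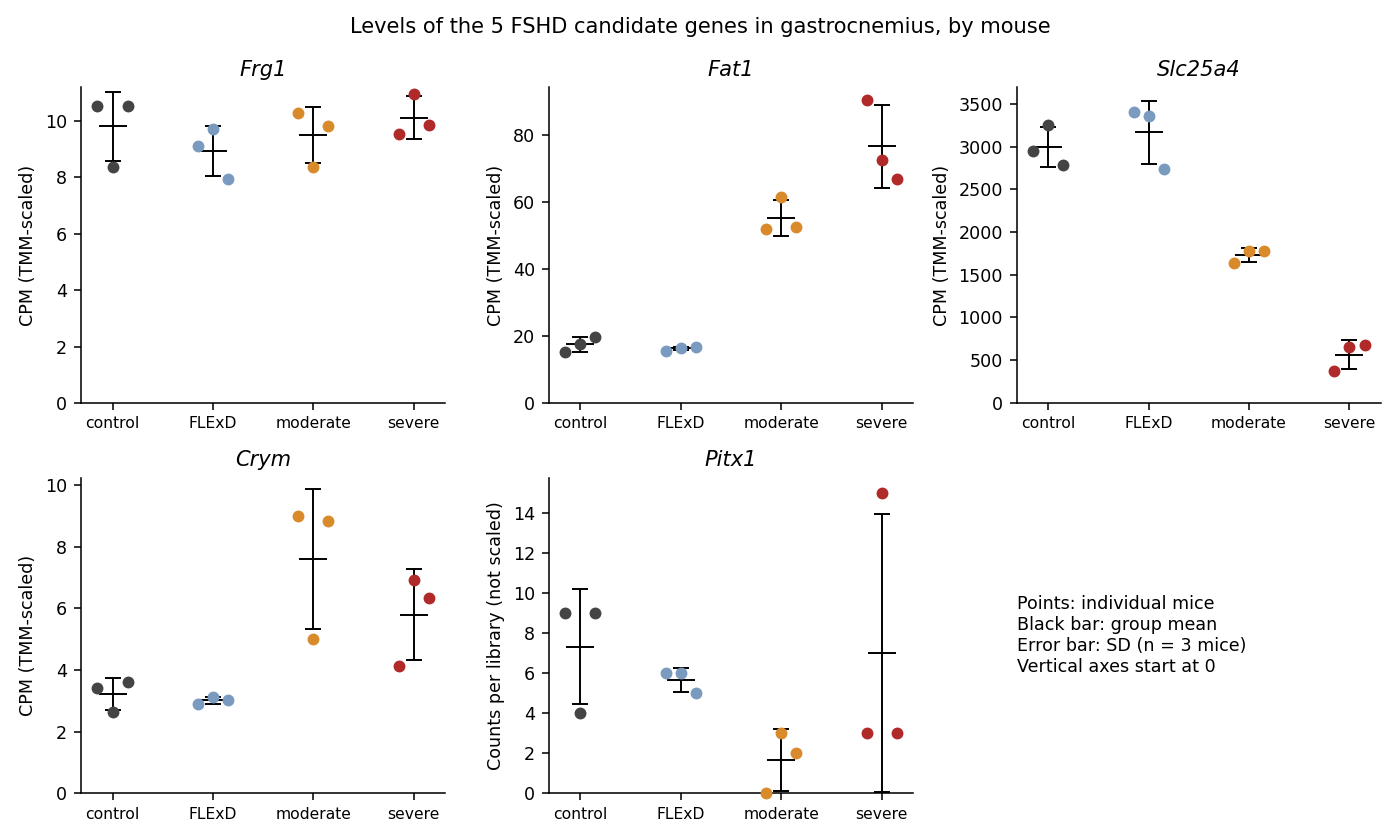
Level of each of the 5 genes in every mouse (points) with the group mean and SD (bars, n = 3 mice), in TMM-scaled CPM on a linear axis from 0, except Pitx1, which is in counts per library. Fat1 rises and Slc25a4 falls from control over moderate to severe muscle, Crym is highest in moderate muscle, Frg1 stays between 7.96 and 10.97 CPM in all 12 mice, and Pitx1 has at most 15 counts.

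In FLExD muscle, labelled as without Cre, none of the 4 tested genes differed from control by the test. Their log2 fold changes were -0.14 (SE 0.13) for Frg1, -0.10 (SE 0.13) for Fat1, 0.08 (SE 0.19) for Slc25a4 and -0.09 (SE 0.27) for Crym, each with an adjusted p of 1 by edgeR. With this tool 0 of the 4 had an unadjusted p under 0.05, and DESeq2 and limma called 0 as well. Over all genes tested, 0% were called higher and 0.00600% lower in this comparison. The 95% intervals ran from -0.41 to 0.14 for Frg1, from -0.38 to 0.17 for Fat1, from -0.34 to 0.50 for Slc25a4 and from -0.67 to 0.48 for Crym.

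In moderate muscle Fat1 and Crym rose and Slc25a4 fell against control, so 2 of the 4 tested genes were called higher and 1 lower, where 24.4% of all genes tested were higher and 17.0% lower. In severe muscle the counts were again 2 higher and 1 lower, against a background of 32.9% higher and 27.9% lower. These 2 comparisons share the control mice. Set directly against moderate muscle, severe muscle had 1 of the 4 genes lower (Slc25a4) and 0 higher by edgeR, where 17.6% of all genes were higher and 18.8% lower. Fat1 was the 1 gene with more RNA in severe muscle at an unadjusted p under 0.05, and its fold was just under the threshold.

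Fat1 (ENSMUSG00000070047) was at 15.3, 17.5 and 19.7 CPM in the 3 control mice and at 15.6, 16.5 and 16.7 CPM in the FLExD mice. In moderate muscle it was at 52.0, 61.6 and 52.6 CPM, and in severe muscle at 90.6, 72.6 and 66.9 CPM. Neither group with TMX overlapped with control, and the lowest severe mouse was above the highest moderate one. The rise was 3.16-fold in moderate muscle (log2 fold change 1.66, SE 0.12, adjusted p = 1.1e-07) and 4.38-fold in severe muscle (2.13, SE 0.12, adjusted p = 2.5e-09). Between severe and moderate muscle the log2 fold change was 0.47 (SE 0.12, adjusted p = 0.0042), with a 95% interval from 0.22 to 0.72. That difference passed the p threshold but not the 1.4-fold one, and it was called under several other settings and without any 1 of moderate mouse 1308, severe mouse 1066 and severe mouse 1079 (0.55, 0.51 and 0.56). Fat1 is a weakly expressed gene per length, with a mean of 1.45 TPM ± 0.156 (SD, n = 3) in control and 11.6 TPM ± 2.43 (SD, n = 3) in severe muscle.

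The ratio of Fat1 counts to Fat1 TPM also moved. The ratio of a gene's counts to its TPM stands for the mean length of its transcripts, and relative to the median of 11029 genes it was 4.78 to 5.41 for Fat1 in control and 5.12 to 5.22 in FLExD muscle. It was 6.19 to 6.36 in moderate and 6.27 to 6.30 in severe muscle, above all 6 other libraries. The same measure for Slc25a4 was 0.56 to 0.565 in control and 0.532 to 0.541 in severe muscle, and so moved the other way and by much less. Low TPM values contain an estimate and not reads, and Fat1 was at 1.45 TPM in control against 11.6 TPM in severe muscle. Whether its mix of transcripts moved was therefore not tested. Fat1 counts were fractional in all 12 libraries, and the cause was not tested. In GENCODE an antisense gene, Gm2366, overlaps Fat1. Whether strand was used in counting is not given in the sources used here, and without it reads of the 2 cannot be told apart.

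Fat1 belongs to a signalling system of giant cadherins (the Fat family as receptors, the Dachsous proteins as ligands, Fjx1 as a kinase of their ectodomains) that acts on planar polarity and the Hippo pathway. Of 12 genes of this system and its partners, 10 were tested, Fat1 included. In moderate muscle 7 were higher and 1 lower, with a median log2 fold change of 1.395 against 0.04 for all genes, and in severe muscle 8 were higher and 1 lower, with a median of 1.27 against 0.08. The shares over all genes tested were 24.4% higher and 17.0% lower in moderate and 32.9% and 27.9% in severe muscle. Dchs1, the ligand of Fat4, went from 6.59 CPM in control to 68.3 CPM in moderate and 48.8 CPM in severe muscle (log2 fold change 3.37, SE 0.10, and 2.89, SE 0.10). Fat3 rose by 2.45 (SE 0.21) in moderate and 1.04 (SE 0.21) in severe muscle on the log2 scale. Fat4 fell by 0.69 (SE 0.19) and 1.07 (SE 0.19), but its call was lost in both with library size alone, where the severe value was 0.23. Fat2 was too low to test. Fjx1 rose by 2.13 and 2.11, Enah, an actin regulator that binds FAT1, by 1.49 and 1.60, and Wwtr1 (TAZ, a Hippo effector) by 1.30 and 1.39 on the log2 scale. Yap1, the other Hippo effector of the list and named after its values were seen, was not called in either group (-0.29 and -0.28). With library size alone Yap1 was at 0.31 and 1.02. Vasp, the relative of Enah, had a log2 fold change of -0.04 in moderate muscle (not called) and rose by 1.15 in severe muscle.

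Slc25a4 (ENSMUSG00000031633) was one of the most abundant messengers of these muscles, the 32nd of 37748 genes by mean TPM in control and the 68th in severe muscle. It was at 2945, 3252 and 2783 CPM in control and at 3400, 3358 and 2738 CPM in FLExD muscle. In moderate muscle the values were 1642, 1778 and 1780 CPM, and in severe muscle 370, 651 and 677 CPM. The control, moderate and severe mice did not overlap, and severe mouse 1047 was the lowest of all. Slc25a4 fell 1.73-fold in moderate muscle (log2 fold change -0.79, SE 0.20, adjusted p = 0.0036) and 5.29-fold in severe muscle (-2.40, SE 0.20, adjusted p = 1e-07). The severe level was also 3.06-fold below the moderate one (-1.61, SE 0.20, adjusted p = 2.1e-05). The call in moderate muscle did not hold with library size alone (-0.18, adjusted p = 0.34) or with limma on TPM (-0.30, adjusted p = 0.174), while that in severe muscle held under every setting tried, between -2.55 and -1.11.

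Slc25a5 (ENSMUSG00000016319) went the other way. It was at 25.5, 32.3 and 20.5 CPM in control, at 26.5, 29.9 and 25.3 CPM in FLExD, at 70.2, 59.1 and 66.4 CPM in moderate and at 133, 125 and 123 CPM in severe muscle. The rise was 1.32 on the log2 scale in moderate (SE 0.13, adjusted p = 1.8e-06) and 2.28 in severe muscle (SE 0.14, adjusted p = 3.2e-09), with no overlap between these groups and control. Slc25a31, the translocase of the male germ line, was too low to test.

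The share of Slc25a4 in the summed counts of the pair needs no scaling between libraries. It was 99.1% ± 0.126 (SD, n = 3) in control, 99.1% ± 0.0738 in FLExD, 96.4% ± 0.442 in moderate and 80.7% ± 6.15 in severe muscle. Per length, control muscle held 109 ± 16.2 Slc25a4 transcripts for each Slc25a5 transcript (ratio of TPM), FLExD muscle 108 ± 9.54, moderate muscle 25.0 ± 3.12 and severe muscle 4.22 ± 1.395. The shares of control, moderate and severe mice did not overlap, and the exact permutation test gave p = 0.10 (two-sided) for each of these 3 differences, the smallest that 3 mice against 3 allow. Without severe mouse 1047 the difference between severe and control was -14.9 percentage points rather than -18.4. The summed TPM of the pair was 2303 ± 151 in control, 1927 ± 150 in moderate and 1231 ± 265 in severe muscle (SD, n = 3).

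**Figure D2:**
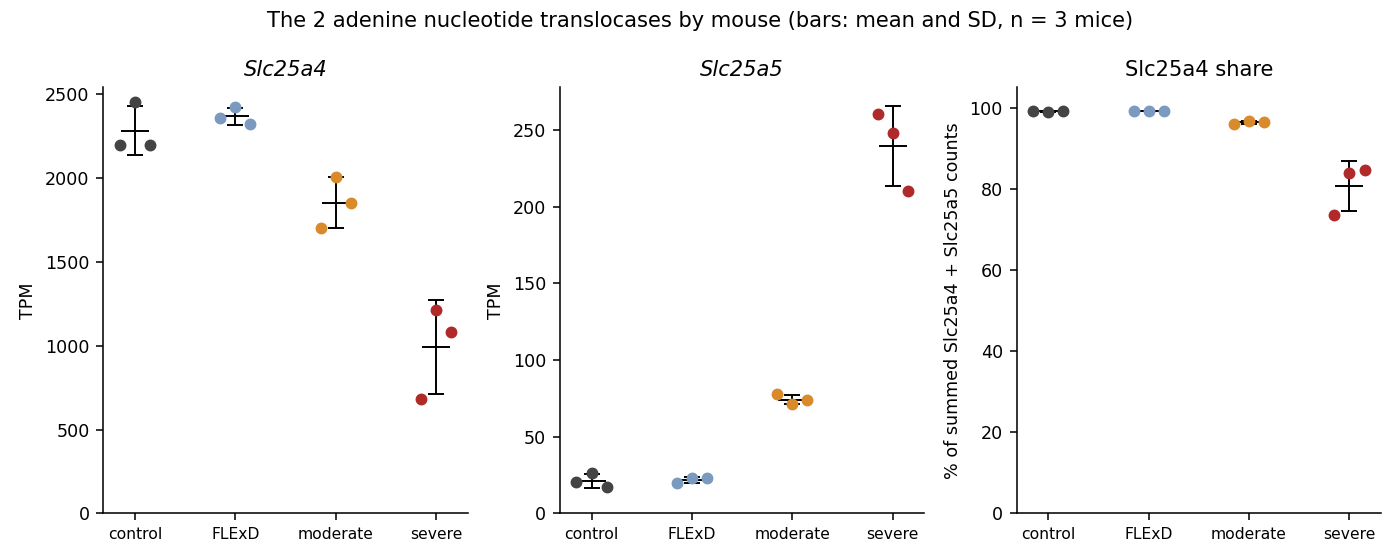
Slc25a4 and Slc25a5 in TPM and the share of Slc25a4 in their summed counts (%), by mouse (points) with mean and SD (bars, n = 3 mice), all axes starting at 0 and the first 2 differing in range. Slc25a4 falls while Slc25a5 rises, and the share goes from 99.1% in control to 80.7% in severe muscle, where 1 mouse lies lowest.

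The translocases work beside the voltage-dependent anion channels of the outer membrane, the kinases that use the exported ATP and the factors that maintain mitochondrial DNA. Of 14 tested genes of this group, Slc25a4 and Slc25a5 included, 2 were higher and 7 lower in moderate muscle (median log2 fold change -0.69, against 0.04 for all genes), and 2 were higher and 11 lower in severe muscle (median -1.31, against 0.08). Scaled by library size alone, 3 were higher and 3 lower in moderate and 4 higher and 6 lower in severe muscle. With TMM, 24.4% of all genes tested were higher and 17.0% lower in moderate muscle, and 32.9% and 27.9% in severe muscle. Ckm and Ckmt2, the cytosolic and mitochondrial muscle creatine kinases, fell by 3.89 (SE 0.26) and 3.84 (SE 0.45) in severe muscle on the log2 scale, Hk2, the hexokinase of muscle, by 2.95 (SE 0.22), and Vdac1, the main anion channel, by 2.54 (SE 0.14). In moderate muscle Ckm fell by 1.43, Hk2 by 1.49 and Vdac1 by 1.26, and Ckmt2 was not called (-0.98, adjusted p = 0.064). The moderate and severe values of Ckm, Ckmt2, Hk2 and Vdac1 had the same sign under every scaling tried, and Ckm is also 1 of the 10 myofibre markers.

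Crym (ENSMUSG00000030905) was at 3.42, 2.65 and 3.60 CPM in control and at 2.90, 3.12 and 3.04 CPM in FLExD muscle. In moderate muscle it was at 8.99, 5.00 and 8.84 CPM and in severe muscle at 4.13, 6.93 and 6.35 CPM. Every mouse with TMX was above every control mouse, while moderate and severe mice overlapped. Crym rose 2.36-fold in moderate muscle (log2 fold change 1.24, SE 0.24, adjusted p = 0.00068) and 1.80-fold in severe muscle (0.85, SE 0.24, adjusted p = 0.0064). Severe against moderate gave -0.39 (SE 0.22, adjusted p = 0.15, 95% interval from -0.87 to 0.08), and the sign of this difference depended on the scale, being 0.29 with library size alone. Without moderate mouse 1308 it was -0.63 and called lower (adjusted p = 0.0175). The counts behind Crym were modest, 55 to 76 per control library and 145 to 294 per library with TMX.

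CRYM holds triiodothyronine in the cytosol, between the transporters and deiodinases that bring in, make or destroy the hormone and the nuclear receptors that respond to it. Of 14 tested genes of thyroid hormone handling, Crym included, 4 were higher and 6 lower in moderate muscle (median log2 fold change -0.52) and 4 were higher and 8 lower in severe muscle (median -1.01), against 6 higher and 5 lower in severe muscle with library size alone. In moderate muscle the split with library size alone was 5 higher and 4 lower. For all genes tested, the TMM shares were 24.4% higher and 17.0% lower in moderate and 32.9% and 27.9% in severe muscle. Dio3, the deiodinase that inactivates the hormone, had 3, 2 and 0 counts in control, 18, 8 and 21 in moderate and 145, 64 and 90 in severe libraries. It was called higher in both groups, but the control libraries were at or under the floor of 3 counts, so the fitted fold is no estimate of size. Dio2, the deiodinase that activates it, rose by 1.51 (SE 0.30) and 1.89 (SE 0.29) on the log2 scale. Slc16a10, a transporter of the hormone named after its values were seen, fell by 1.14 (SE 0.17) and 0.88 (SE 0.16) on the TMM scale, but was at 0.42 in severe muscle with library size alone. Thrb, the beta receptor, fell by 0.74 and 2.13 on the log2 scale in moderate and severe muscle, Hr, a receptor corepressor and hormone-induced gene, by 1.38 and 3.90, and Klf9, a hormone-induced transcription factor, by 1.38 and 2.69. Thrsp, a hormone-induced gene of lipid synthesis, fell by 2.37 (SE 0.48) in severe muscle and was not called in moderate muscle (-0.60, adjusted p = 0.29). Thrb was at -0.14 in moderate muscle with library size alone, short of the threshold. The severe values of Thrb, Hr, Klf9 and Thrsp had the same sign under all scalings tried.

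**Figure D3:**
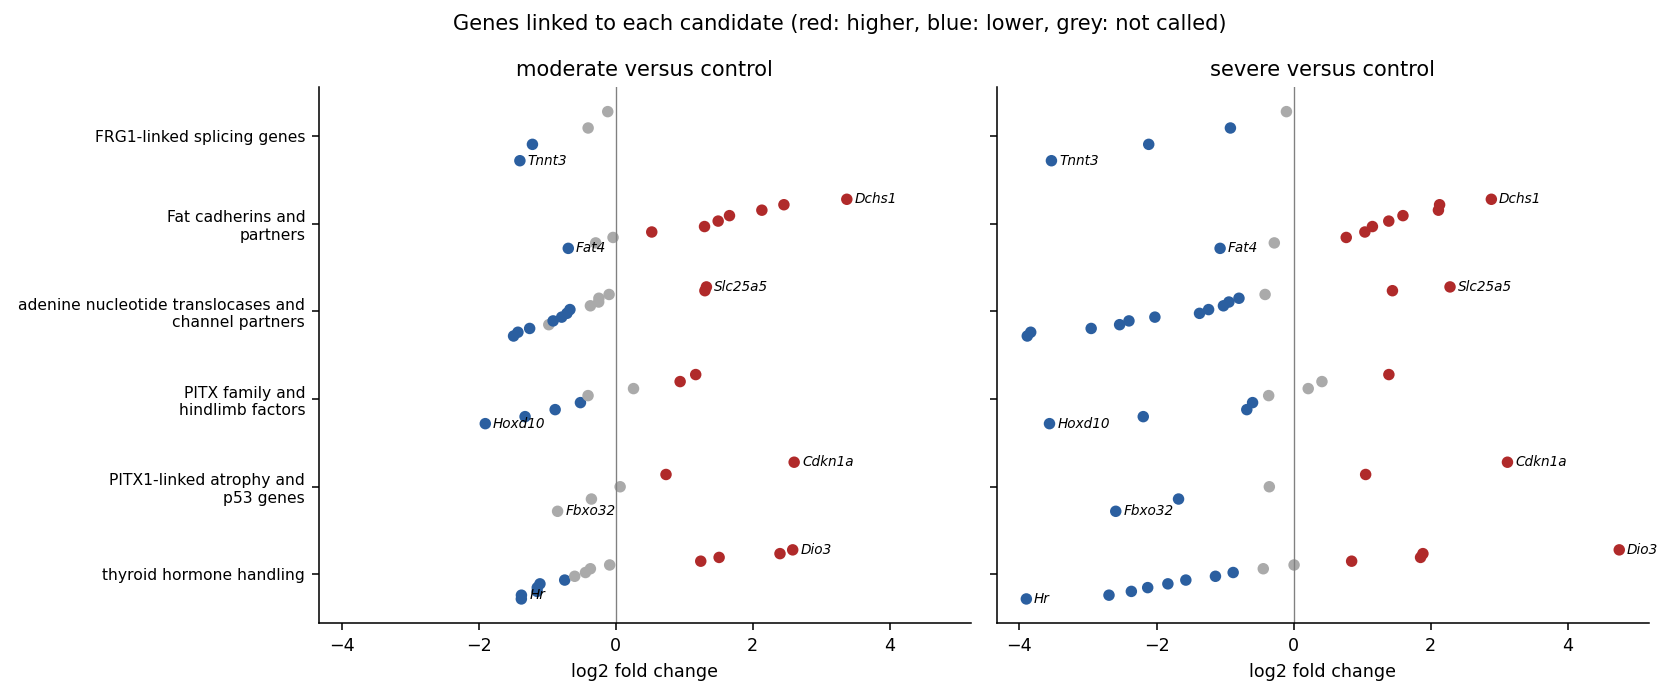
Log2 fold change against control (horizontal axis, TMM) of the tested genes of 6 lists linked to the candidates (rows), each point 1 gene, with called genes in red (higher) and blue (lower) and others in grey. In severe muscle 8 of 10 Fat genes lie to the right and 11 of 14 translocase genes to the left as called genes, and Hr (-3.90) is the lowest gene of the thyroid list. Over all genes tested, 32.9% were called higher and 27.9% lower in severe muscle. The position of Dio3 rests on control libraries of at most 3 counts.

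Frg1 (ENSMUSG00000031590) was not called in any comparison on the TMM scale. It was at 10.5, 8.38 and 10.5 CPM in control, 9.10, 9.72 and 7.96 CPM in FLExD, 10.3, 8.38 and 9.82 CPM in moderate and 9.54, 10.97 and 9.86 CPM in severe muscle. All 4 groups overlapped. The log2 fold change was -0.05 in moderate (SE 0.12, adjusted p = 0.78, 95% interval from -0.31 to 0.22) and 0.05 in severe muscle (SE 0.12, adjusted p = 0.75, 95% interval from -0.22 to 0.31), so these intervals allow changes of up to about 0.31 on the log2 scale. The result rests on the scale, since with library size alone Frg1 was higher by 0.56 (adjusted p = 0.00114) in moderate and by 1.35 (adjusted p = 8.45e-08) in severe muscle. The median of all genes moved by as much on that scale, and relative to it Frg1 was at -0.08 and -0.04. In TPM its mean was 8.43 ± 1.16 in control, 11.4 ± 0.666 in moderate and 20.1 ± 2.65 in severe muscle (SD, n = 3). With limma on log2(TPM + 1), the value relative to the median of all genes was 0.11 in moderate and 0.37 in severe muscle. Fold changes of low genes are understated on that scale. Its median of all genes was 0.79 in severe muscle, against 1.39 with library size alone. Whether this accounts for the value of 0.37 was not tested. By mean TPM, Frg1 was at percentile 71.3 of the tested genes in control, 70.5 in moderate and 74.2 in severe muscle.

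**Figure D4:**
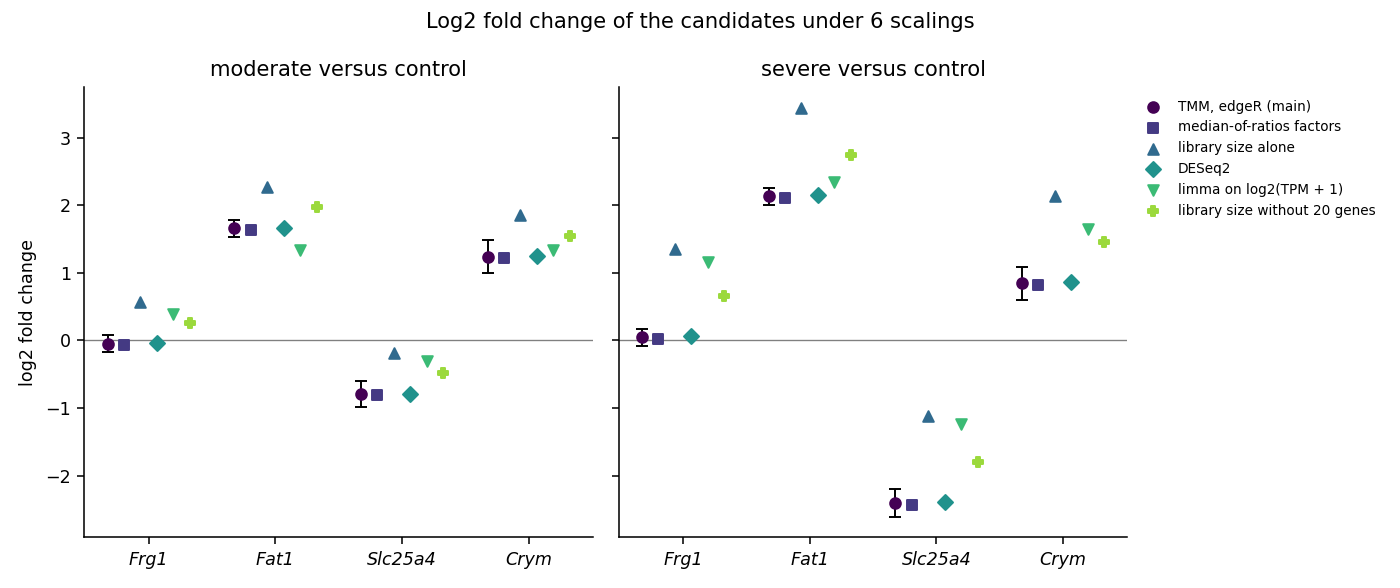
Log2 fold change (vertical axis) of the 4 tested candidates in moderate and severe muscle against control under 6 scalings or tools, with the SE of the main TMM fit as a bar. TMM, median-of-ratios factors and DESeq2 coincide, while library size alone, limma on TPM and library size without the 20 most abundant genes of control muscle shift all 4 genes, which carries Frg1 from 0.05 to 1.35 in severe muscle but leaves Fat1 and Crym above and Slc25a4 below 0.

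Genes whose splicing or function has been tied to FRG1 in earlier work on overexpressing muscle were 4, and all were tested. On the TMM scale 0 were higher and 2 lower in moderate muscle, and 0 were higher and 3 lower in severe muscle. Beside this, 24.4% of all genes tested were higher and 17.0% lower in moderate, and 32.9% and 27.9% in severe muscle. Tnnt3, fast skeletal troponin T, fell by 1.398 (SE 0.21) and 3.53 (SE 0.23) on the log2 scale and is itself 1 of the 10 myofibre markers. Rbfox1, a muscle splicing factor, fell by 1.22 (SE 0.16) and 2.11 (SE 0.17). Both had the same sign under all scalings. Mtmr1, a phosphoinositide phosphatase, fell by 0.92 (SE 0.09) in severe muscle on the TMM scale, but was at 0.38 with library size alone. These are total levels per gene, and splicing was not analysed here.

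Pitx1 (ENSMUSG00000021506) was close to the limit of detection. Its counts were 9, 4 and 9 in the control libraries, 6, 6 and 5 in FLExD, 0, 3 and 2 in moderate and 3, 15 and 3 in severe ones. The moderate libraries were below all control libraries, and 15 of the 21 counts of the severe group came from mouse 1066. A floor of 3 counts per library stood for 0.142 to 0.155 CPM in control and 0.0676 to 0.0725 CPM in severe muscle. Over the summed counts with TMM-scaled depths, moderate muscle had 0.152 times the Pitx1 level of control, with an exact 95% interval from 0.0450 to 0.412 that covers counting error only. Severe muscle had 0.456 times the control level (0.238 to 0.868) with TMM but 1.12 times with library size alone. When low genes were kept in the fit, edgeR gave -2.56 (SE 0.78, adjusted p = 0.0134) in moderate and -1.02 (SE 0.61, adjusted p = 0.199) in severe muscle, and DESeq2 gave -2.71 (adjusted p = 0.0128) and -1.12 (adjusted p = 0.232). The TPM table lists 0.09 for the moderate library without a count, so its values at this level are not reads.

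Of 11 genes of the PITX family and the hindlimb program, 8 were tested. In moderate muscle 2 were higher and 4 lower, and in severe muscle 1 was higher and 4 lower, against 5 higher and 2 lower in severe muscle with library size alone (3 and 1 in moderate muscle). Without control mouse 1246 or severe mouse 1047, 2 were higher in severe muscle. The median log2 fold change of the list was -0.46 in moderate and -0.48 in severe muscle, against 0.04 and 0.08 for all genes. Of all genes tested, 24.4% were higher and 17.0% lower in moderate muscle, and 32.9% and 27.9% in severe muscle. Pitx3, a relative of Pitx1 that is expressed in skeletal muscle, fell by 1.32 (SE 0.31) in moderate and by 0.68 (SE 0.29, adjusted p = 0.047) in severe muscle on the log2 scale, the latter turning to 0.62 with library size alone. Tbx4, the T-box factor of the hindlimb and a target of Pitx1, rose by 0.94 (SE 0.24) and 1.39 (SE 0.23). Hoxd10 fell by 1.90 (SE 0.31) and 3.56 (SE 0.35) and Hoxc10 by 0.88 (SE 0.12) and 2.19 (SE 0.12), both with the same sign under all scalings, although Hoxc10 in moderate muscle was at -0.28 with library size alone, short of the threshold. Hoxc11 fell by 0.51 and 0.60 on the TMM scale but not with library size alone (0.09 and 0.70).

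Forced PITX1 expression in muscle has been tied to atrophy and to p53. Of 5 such genes, all tested, 2 were higher and 0 lower in moderate muscle and 2 higher and 2 lower in severe muscle. With library size alone 3 were higher and 0 lower in moderate and 3 higher and 1 lower in severe muscle, and Trim63 in severe muscle was at -0.39, short of the threshold. Without any 1 of control mice 1246 and 1349, FLExD mouse 1358 and moderate mouse 1331, 1 was lower in moderate muscle. By TMM, 24.4% of all genes tested were higher and 17.0% lower in moderate, and 32.9% and 27.9% in severe muscle. Trp53 rose by 0.73 (SE 0.16) and 1.05 (SE 0.16), and its target Cdkn1a (p21, a brake on the cell cycle) by 2.60 (SE 0.25) and 3.12 (SE 0.25) on the log2 scale. Mdm2, the remaining gene of the list and named after its values were seen, did not follow them. It was not called on the TMM scale (0.06 and -0.35) and was at 0.67 and 0.95 with library size alone. The ubiquitin ligases of atrophy, Fbxo32 and Trim63, fell by 2.59 (SE 0.37) and 1.68 (SE 0.22) in severe muscle and were not called in moderate muscle (-0.85 and -0.35, adjusted p = 0.062 and 0.19).

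Frg1, Fat1 and Slc25a4 share a stretch of mouse chromosome 8 that corresponds to human 4q35. Frg1 starts 4.81 Mb and Fat1 1.27 Mb before Slc25a4 in chromosome order. Of 31 further genes of this region, all on chromosome 8 within 3.08 Mb before and 2.02 Mb after Slc25a4, 24 were tested. In moderate muscle 12 were higher and 4 lower, a median log2 fold change of 0.53 against 0.04 for all genes. Over all genes tested, 24.4% were higher and 17.0% lower in that group. In severe muscle 9 were higher and 7 lower, a median of -0.20 against 0.08. These severe counts are near the shares over all genes tested, 32.9% higher and 27.9% lower. With library size alone 20 were higher and 1 lower (15 and 2 in moderate muscle). That scale called 12580 of all 16679 genes higher in severe muscle. Cenpu, a centromere protein of dividing cells, rose by 1.06 (SE 0.38) and 2.41 (SE 0.35) on the log2 scale, and Dctd, a deoxycytidylate deaminase, by 1.23 (SE 0.28) and 2.08 (SE 0.26). Cyp4v3 rose by 1.15 and 1.98, and Fam149a by 1.39 and 1.69. Helt, a transcription factor gene that starts 0.0852 Mb after Slc25a4, went from 0.722 CPM in control to 0.109 CPM in moderate and 0.00805 CPM in severe muscle, a level below the floor of 3 counts per library, so its fitted log2 fold change of -5.89 in severe muscle is no estimate of size. Lrp2bp, picked after its values were seen, rose by 2.23 (SE 0.22) in moderate muscle and was called lower in severe muscle (-0.53, SE 0.23, adjusted p = 0.049), the latter turning to 0.76 with library size alone. None of the 24 lies near Frg1, which is outside the span of the list.

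**Figure D5:**
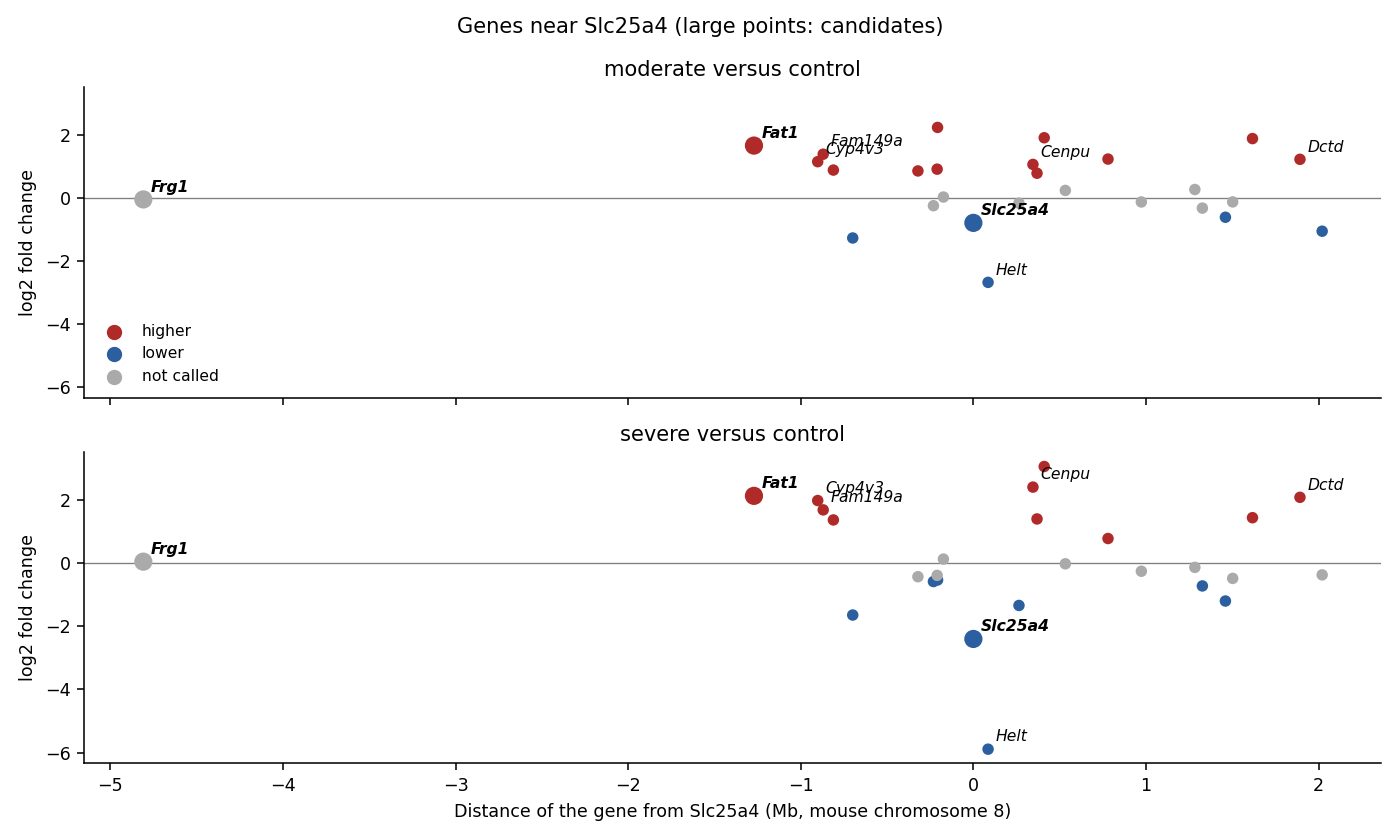
Log2 fold change against control (vertical axis, TMM) of the tested genes around Slc25a4 by the distance of their lowest coordinate from that of Slc25a4 (horizontal axis, Mb on mouse chromosome 8), for moderate and severe muscle, with the 3 candidates as large points. Red genes are called higher, blue ones lower and grey ones not called, and both colours stand on each side of Slc25a4, with Fat1 (2.13), Slc25a4 (-2.40) and Frg1 (0.05) in severe muscle apart from each other.

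The genes most like each candidate over the 12 libraries, by Pearson correlation of log2 CPM among 13332 genes with at least 1 CPM on average, are given as a description, since all libraries share the 4 groups and 1 scaling. For Slc25a4 they were Coq9, Gbas and Gnpat (each 0.999), of which Coq9 makes coenzyme Q and was also first with library size alone (0.996). For Fat1 they were Mki67 (0.995), a marker of cycling cells, Pdia3 (0.994) and Macf1 (0.994). For Crym they were Clock (0.977), the circadian transcription factor, Hook1 (0.969) and Pcyox1 (0.965). A correlation above 0.9 was shared by 2662 genes with Slc25a4, by 2589 with Fat1 and by 234 with Crym, but by 0 with Frg1, whose closest genes were Snord118 (0.815), Psme2b-ps (0.755) and Cdk8 (0.747). With library size alone the genes above 0.9 numbered 7527 for Frg1, 7794 for Fat1, 3995 for Crym and 356 for Slc25a4. The genes most like Fat1 were then Pcdha10, Mtap1a and Hk3, and those most like Crym were Psmd12, Trim23 and Uchl5. Of the genes named above, Coq9 alone stayed among the most alike. Likeness to other genes thus depended on the scale for all the tested candidates.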

How the data were processed

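The authors made randomly primed libraries from poly(A)-selected gastrocnemius RNA and sequenced single 50-base reads. They assigned reads with RSEM 1.2.4, which calls Bowtie (at most 2 mismatches), and with TopHat2 2.0.8b to a merged annotation on mm10. The deposited gene table holds RSEM expected counts, not normalized, and a second deposited table holds TPM. Nearly all entries with 0 counts (99.8% of 164417) have a TPM above 0, so low TPM values contain an estimate and not reads.

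Expected counts were rounded to whole numbers. Genes were filtered with filterByExpr (16679 of 37748 kept), scaled with TMM and fitted over all 12 libraries with edgeR 4.0.16 (quasi-likelihood test, R 4.3.3), with group as the only term. p-values were adjusted over all genes tested, and calls needed an adjusted p below 0.05 and an absolute log2 fold change of 0.5 (1.4-fold). Alternatives used no filter, a minimum of 10 counts in every library, other scalings, DESeq2 1.42.0, limma 3.58.1 on log2(TPM + 1) and log2(TPM + 0.1), where fold changes of low genes are understated, only the groups compared, other fold thresholds, an approximate Bayes factor above 10 and each mouse left out. The script was run on simulated data with set changes in randomly drawn genes of the moderate group. Those data were not built with the shift in abundant genes seen here, so they do not test the choice of scale. Positions and transcript sequences came from GENCODE (GRCm38).

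The 5 candidates and the gene lists were chosen with earlier results of these data known. The candidates were named in full. Each list gave at most its 6 called genes of largest change in severe muscle, besides preset relatives of the candidates, and each tested candidate its 3 most alike genes. No pair of libraries was identical. The library depth was 23796902 to 29136403 counts, and intervals on counts cover counting error only. Splicing was not analysed here, and 2 genes of the lists that the naming rule covers are not reported here.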

Additional observations from a re-analysis of the deposited data

Results flagged for a closer look

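One result was flagged because a direct test found a difference between the 2 groups with TMX. Slc25a4 fell further in severe than in moderate muscle, with a log2 fold change of -1.61 (SE 0.20, edgeR adjusted p = 2.1e-05) between them, and 3 of 3 severe mice were below all 3 moderate mice. It was called under every alternative, with values from -1.77 to -0.93 and adjusted p-values from 5.47e-16 to 0.000444. Severe mouse 1047 had the lowest level (370 CPM) and also the lowest share of counts in the 20 most abundant genes of control muscle (30.4%), and whether the 2 are connected was not tested. The test of a sample standing apart needs at least 4 samples in a group, so it could not be run here.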

How the results depend on the processing

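Of the candidates' results outside the left-out mice, 268 kept their direction and side of the threshold, 9 reversed, 14 became called, 8 lost a call and 17 counts moved. With 1 mouse left out 301 were the same, 3 reversed, 4 became called, 0 lost a call and 4 counts moved. Between FLExD and control no candidate was called, so no call could be lost there. Of 3000 list counts under the alternatives, 284 moved by over 1.5 times. The cause of these shifts was not tested beyond the move of the median of all genes by scaling.

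With library size alone, Frg1 was 0.56 in moderate and 1.35 in severe muscle and 0.79 between them, Slc25a4 in moderate muscle was -0.18, Fat1 between severe and moderate was 1.18 and Crym between them 0.29. With limma on log2(TPM + 1) the same 6 values were 0.39, 1.16, 0.76, -0.30, 1.02 and 0.31, and with log2(TPM + 0.1) they were 0.43, 1.24, 0.81, -0.30, 1.13 and 0.34. With library size without 20 genes, chosen after seeing the data, Frg1 was 0.26 and 0.65, Slc25a4 in moderate muscle -0.48 and Fat1 between severe and moderate 0.77. With no filter Frg1 in moderate muscle was 0.013 and Fat1 between severe and moderate 0.51. With at least 10 counts in every library these were 0.0089 and 0.53. A log2 fold of at least 1 ended the calls of Slc25a4 in moderate (-0.79) and Crym in severe muscle (0.85), no fold threshold called Fat1 between severe and moderate (0.47), and the Bayes factor rule did not call Crym (1.24 and 0.85).

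Candidates called lower in moderate muscle, 1 in the main analysis, were 2 with no filter and with DESeq2, where Pitx1 is added, and 0 with library size alone, limma, a log2 fold of at least 1 and library size without 20 genes. The Bayes factor rule called 1 higher in moderate and in severe muscle, and a log2 fold of at least 1 called 1 in severe muscle. Between severe and moderate muscle, 1 candidate was called higher with no filter, a minimum of 10 counts, no fold threshold and library size without 20 genes, and 2 with library size alone and limma.

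With 1 mouse left out, Frg1 ran from -0.178 to 0.038 in moderate and from -0.072 to 0.090 in severe muscle, with its sign turning without moderate 1308, control 1246 or severe 1066. Between severe and moderate, Fat1 ran from 0.33 to 0.56 and Crym from -0.63 to -0.20, the candidates called higher from 0 to 1 and those called lower from 1 to 2. The share of Slc25a4 between severe and control ran from -20.4 to -14.9 points. No paired analysis was possible because the groups share no mouse or replicate number. Among the candidates and list genes named, Pitx1, Fat2 and Slc25a31 had libraries at or under the floor of 3 counts. The same held for Helt in muscle with TMX and for Dio3 in control and FLExD muscle.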
